A study of Saccharomyces cerevisiae with 279 samples.

Results

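The cells described here were yeast cells depleted of the cap-binding protein eIF4E and then held at 42C or 30C for 10 min. Of the 279 libraries of the series, 12 were chosen by their labels: the Sed-seq libraries of the auxin-treated eIF4E degron strain at these temperatures, with 2 lysates a side and 3 libraries for each lysate (Total, supernatant and pellet). The strain, yHG038 (CDC33-AID*-3xflag, MATα ura3Δ0 his3Δ1 lys2Δ0 with leu2::pZ4EV-OsTIR1_Z4EV-ATF_LEU2), carries eIF4E, the product of CDC33, fused to an auxin-inducible degron tag, and the OsTIR1 ubiquitin ligase adaptor under a promoter switched on by β-estradiol. All depleted cells, at 30C as at 42C, had grown in YPD and received 5 µM β-estradiol for 75 min and then auxin for 2 h. Mock-treated cells of the same strain at both temperatures (12 libraries) received DMSO. Cells of a second strain, yJB042 (PRT1-AID*-3xflag, otherwise of the same genotype), were depleted of the initiation factor eIF3b (12 libraries) and handled alike. The fits also took in 46C samples of the eIF4E strain. The comparison with eIF3b-depleted cells also took in mock-treated cells of yJB042 and its 46C samples. Heat was applied to pelleted cells, so the cells were out of fresh medium during the 10 min, and the 30C control pellets stood in an incubator. The labels number the lysates 1 and 2, and the methods describe the replicates as biological and begun from growth.

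eIF4E binds the 5′ cap of an mRNA and, with eIF4G and the helicase eIF4A, brings the small ribosomal subunit to it, while eIF3b is a subunit of the larger complex that joins the small subunit to the mRNA. When budding yeast is heated, most translation stops, many mRNAs gather with RNA-binding proteins in particles heavy enough to pellet, and the transcription factor Hsf1 turns on chaperone genes. Sed-seq spins a lysate and sequences the RNA of the whole lysate (Total), of the supernatant and of the pellet. The share of an mRNA that stays in the supernatant is called pSup, and a lower pSup means more sedimentation. It was compared on its natural log-odds scale. Since long mRNAs sediment more at any temperature, the log-odds were also centred on mRNAs of nearly the same length. The change of this centred value from 30C to 42C, in units of its SD in the 30C depleted lysates (0.355), is called escape. Positive escape means that heat shifted an mRNA less toward the pellet than mRNAs of the same length, whatever its sedimentation at 30C.

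The libraries held 4921756 to 7237040 estimated counts each. The α-cell genes were high (MF(ALPHA)1 2703 to 3040 TPM over the 4 Total libraries), with at least 2808 counts each, while the a-cell genes had 1 to 133. The deleted URA3 had 0 counts and LYS2 had 1 to 4, as the genotype requires. HIS3, listed in the genotype as his3Δ1, had 411 to 641 counts. The degron removes the protein and not the mRNA, so CDC33 counts do not check the depletion: CDC33 was at 498 and 479 TPM at 30C and at 463 and 461 TPM at 42C, against 670 and 663 TPM in mock-treated cells at 30C. The depleted and mock-treated pools differed before heat, with 1694 of 5515 transcripts higher and 1608 lower in depleted cells at 30C (edgeR, adjusted p under 0.05). Loss of eIF4E and the agents added to the depleted cells cannot be told apart in this difference.

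Heat moved nearly the whole transcriptome toward the pellet in eIF4E-depleted cells. The median pSup over 4938 transcripts was 0.710 and 0.716 in the 30C lysates and 0.380 and 0.314 in the 42C lysates. The groups did not overlap, and their means were 0.713 ± 0.00462 and 0.347 ± 0.0467 (SD, n = 2). The share of transcripts with a pSup under 0.5 went from 7.07% and 5.87% in the 30C lysates to 77.7% and 89.6% in the 42C lysates. Of the 4938 transcripts, 4923 had a lower log-odds pSup at 42C (99.7%; limma, adjusted p under 0.05) and 1 a higher one (0.0203%), and the median change was −1.54. Scaled by the NanoLuc RNA added to each fraction in place of the deposited mixing ratios, the median change was −1.81, with 4935 lower and 0 higher. The sedimentation change in SD units, which is the loss of log-odds divided by 0.355, had a median of 3.88 in lysate pair 1 and 4.76 in pair 2. It was positive in both pairs for 99.9% of transcripts.

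**Figure D1:**
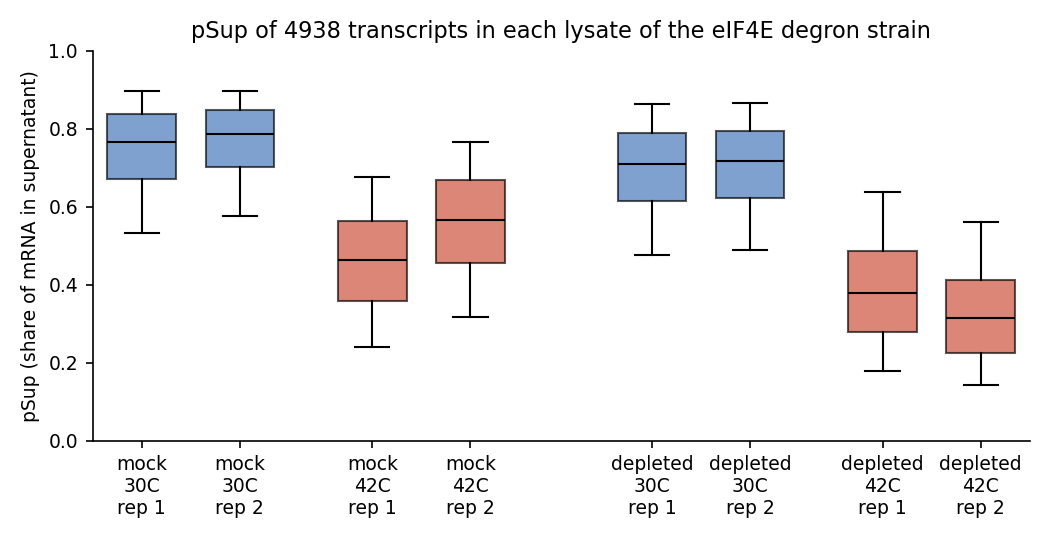
Share of each mRNA in the supernatant (pSup, vertical axis) for 4938 transcripts in the 8 lysates of the eIF4E degron strain at 30C (blue) and 42C (red); boxes span the quartiles, the line is the median and whiskers reach the 5th and 95th percentiles. Depleted lysates went from medians of 0.710 and 0.716 at 30C to 0.380 and 0.314 at 42C, and mock-treated lysates from 0.765 and 0.786 to 0.463 and 0.566.

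The mock-treated lysates of the strain started higher and ended higher than the depleted ones: both 42C medians of depleted cells were below both of mock-treated cells. The median change in log-odds differed by −0.36 between depleted and mock-treated cells, with 90% of transcripts between −0.71 and −0.01. Tested transcript by transcript, this difference passed the threshold for 0 transcripts (limma interaction, 158 at an unadjusted p under 0.05). The median sedimentation change was 3.88 and 4.76 SD units in the depleted pairs and 3.71 and 2.85 in the mock-treated pairs. An exact permutation test of 2 against 2 lysates cannot give a two-sided p below 0.333. In eIF3b-depleted cells the medians were 0.642 and 0.567 at 30C and 0.228 and 0.285 at 42C, below those of eIF4E-depleted cells at either temperature.

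Of 4938 transcripts 14 were called neither higher nor lower in log-odds pSup, most of them chaperone mRNAs. They were chosen here for that after their values were seen, and missing the threshold does not show that they did not sediment more. SSA4, the heat-inducible cytosolic Hsp70 (chromosome V, 364589 to 366517 in the R64 assembly), had a pSup of 0.706 and 0.675 at 30C and 0.783 and 0.730 at 42C, so that both 42C values were above both 30C values. BTN2, which sorts misfolded proteins into inclusions, had 0.740 and 0.717 at 30C and 0.735 and 0.677 at 42C. HSP26, a small heat shock protein, had 0.862 and 0.875 against 0.876 and 0.827. The values of BTN2 and HSP26 overlapped between temperatures. The changes in log-odds were 0.33 ± 0.27 (SE) for SSA4, −0.11 ± 0.27 for BTN2 and −0.13 ± 0.26 for HSP26. These SEs came mostly from the spread that limma shares over all transcripts, and were 0.26 to 0.27 for all 14. Whether a transcript was called in log-odds therefore depended mostly on the size of its change. HSP104, the disaggregase, had 0.733 and 0.742 against 0.729 and 0.688.

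HSP82, the inducible Hsp90, had a pSup of 0.802 and 0.799 at 30C against 0.790 and 0.737 at 42C. RTC3, a short stress-responsive mRNA, had 0.891 and 0.882 against 0.887 and 0.841. HSP30, which encodes a plasma membrane stress protein, had 0.858 and 0.860 against 0.841 and 0.795. These mRNAs stayed far above the 42C medians over all transcripts, although the values at 42C were mostly just below those at 30C. TMA10, SSA1, HSP78, SSA2 and STI1 were also among the 14, with log-odds changes from −0.34 to −0.52 (STI1 had a pSup of 0.732 and 0.737 against 0.652 and 0.588, with no overlap), and so was HAC1, which encodes the transcription factor of the unfolded protein response, at −0.48 ± 0.27. The last of the 14 was DAN1, a cell wall mannoprotein gene read at only 46 counts over supernatant and pellet in its shallower 42C lysate, with −0.51 ± 0.27. SSA1 and SSA2 are near-identical, so reads may be split between them. The 1 transcript called higher was YRF1-6, a subtelomeric helicase gene with several near copies, with pSup values of 5.95e-05 and 0.916 in the 30C lysates and of 0.000452 and 0.949 in those at 42C. The replicates of a temperature lay at opposite ends of the scale, and read assignment among copies is uncertain. Its SE in log-odds, 0.32, came mostly from the shared spread and does not reflect this distance between replicates. The change in log-odds, 1.27, became −4.79 without 30C lysate 1 and −4.03 without 42C lysate 2.

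**Figure D2:**
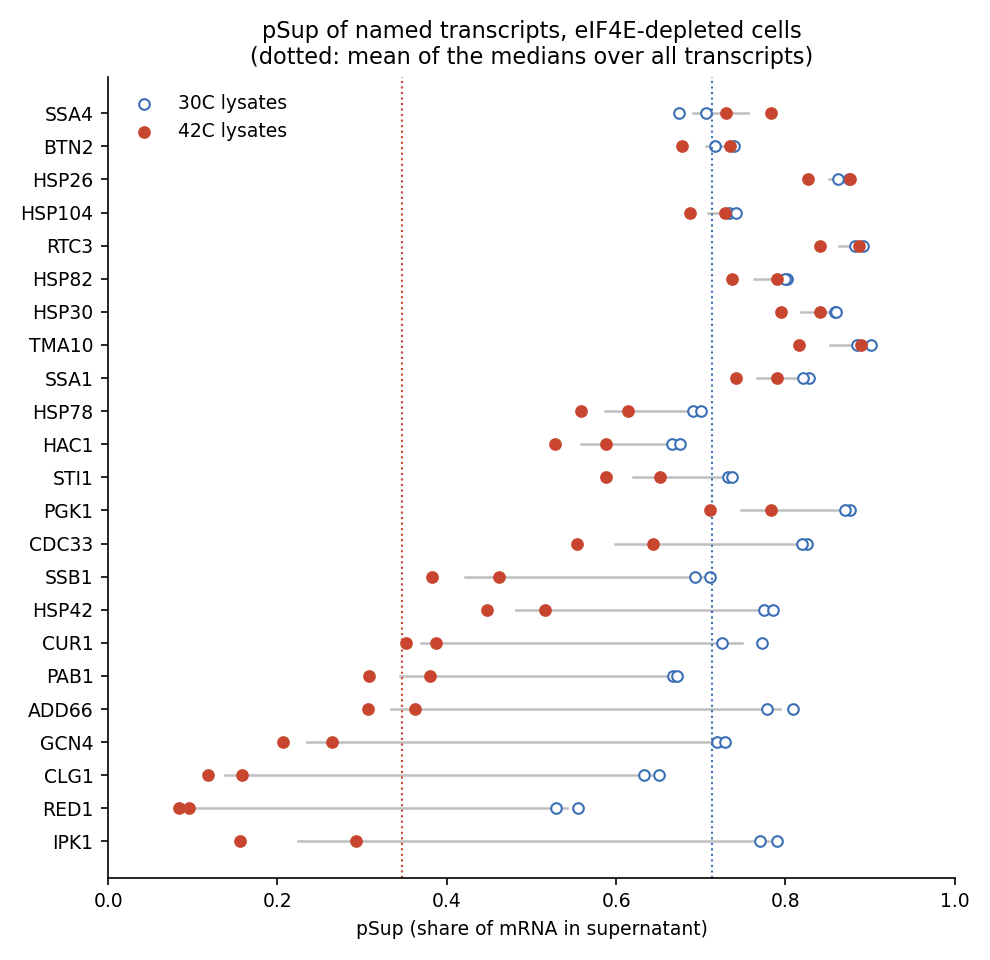
pSup (horizontal axis) of 23 transcripts in the eIF4E-depleted lysates at 30C (open blue) and 42C (filled red); grey lines join the means and dotted lines mark the mean of the medians over all transcripts (0.713 and 0.347). SSA4, BTN2, HSP26 and HSP104 kept 42C values of 0.677 to 0.876, while GCN4, CLG1, RED1 and IPK1 fell to between 0.0839 and 0.293.

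At the other end, CLG1, a cyclin-like partner of the kinase Pho85, went from 0.650 and 0.633 to 0.158 and 0.118, and RED1, a meiotic chromosome axis gene, from 0.529 and 0.556 to 0.0959 and 0.0839. IPK1, an inositol phosphate kinase gene, went from 0.770 and 0.791 to 0.293 and 0.156. In each, the temperatures were far apart. GCN4, whose translation is governed by short upstream reading frames, went from 0.719 and 0.729 to 0.264 and 0.207.

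The second question was which mRNAs changed in amount. In Total RNA, 75 of 5515 transcripts rose (1.36%) and 157 fell (2.85%) at 42C (edgeR quasi-likelihood test, Benjamini-Hochberg adjusted p under 0.05). The lysate number paired the Total libraries, which this fit did not take into account. With the number as a block 196 rose and 301 fell, among them all 75 and all 157. Levels are given as CPM, the counts of a transcript scaled to the size of its library, and so are relative to the other mRNAs. Scaled by NanoLuc RNA instead, the median of all transcripts was −0.27 (log2), and 35 rose and 215 fell. In that scaling, less RNA per cell and fewer cells cannot be told apart. Leaving out 1 library left 39 to 58 rises, the fewest without 30C lysate 2, with 43 without 42C lysate 1. The falls were 65 without 42C lysate 2, 71 without 30C lysate 1 and 95 without 30C lysate 2, or 1.17% to 1.93% of transcripts over the 4 fits.

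The largest rise was of SSA4, from 94.3 and 69.6 CPM at 30C to 1706 and 1328 CPM at 42C, which is 18.6-fold (log2 4.22 ± 0.21 SE, adjusted p = 4.59e-08). BTN2 rose from 106.6 and 33.2 to 1016 and 815 CPM (log2 3.74 ± 0.36). The temperatures were well separated in both, while the 30C lysates of BTN2 differed by more than those of SSA4. HSP78, the mitochondrial matrix disaggregase, rose from 252 and 155 to 1171 and 906 CPM (log2 2.36 ± 0.24), and HSP82 from 649 and 355 to 1950 and 1634 CPM (log2 1.84 ± 0.22). ZPR1, which folds the elongation factor eEF1A, rose from 204 and 178 to 862 and 711 CPM (log2 2.04 ± 0.11). In all of these genes, lysate 1 was above lysate 2 at each temperature. The other transcripts of the 10 largest rises were YPR015C (2.27), APJ1, an Hsp40 (2.24), CUR1, a paralog of BTN2 (1.95), HSP42, a small heat shock protein (1.93), and FES1, an exchange factor of Hsp70 (1.75).

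The 10 largest falls included genes of glucose uptake and of glycogen storage. HXT4, a glucose transporter, fell from 150 and 174 to 40.1 and 36.7 CPM (log2 −2.08 ± 0.09, adjusted p = 1.1e-08), and GLC3, the glycogen branching enzyme, from 154 and 132 to 41.5 and 30.0 CPM (log2 −2.01 ± 0.16). GSY1, a glycogen synthase, fell from 169 and 139 to 60.8 and 47.8 CPM. The groups were apart by more than their spread in all 3. MTH1, a repressor in glucose sensing, changed by −1.45 and IGD1, an inhibitor of glycogen debranching, by −1.63 (log2). HXT6, at −1.45, is near-identical to HXT7 and its reads may be shared. EGO4 (−2.17), BAG7 (−1.81), YNL144C (−1.51) and YMR103C (−1.45) complete the 10.

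Of the 47 transcripts that the deposited label assigns to Hsf1, all tested, 34 rose and 1 fell, with a median log2 change of 0.90, against 1.36% and 2.85% of all transcripts and a median of 0.00. They made up 34 of the 75 rises. Without 30C lysate 2 the count was 21 and without 42C lysate 1 it was 22, and with the block it was 42. The faller was HRK1, a kinase gene, at −0.37 ± 0.06. Of 194 measured transcripts with the Msn2/4 label, targets of the general stress factors, 2 rose and 45 fell, with a median of −0.24, so that most were called in neither direction. Without 30C lysate 1 the falls were 21, without 42C lysate 2 they were 23, without 42C lysate 1 they were 29, and with the block 78. YRO2, a plasma membrane gene, fell from 665 and 589 to 361 and 299.8 CPM, and PIC2, a mitochondrial carrier gene, from 156.7 and 164.0 to 63.7 and 68.02 CPM. According to the methods, both labels were taken from target sets of earlier publications.

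Among cytosolic Hsp70 and disaggregase genes, 8 of 14 rose and 0 fell, and among Hsp90 and its co-chaperones 6 of 12 rose. For the Hsp70 list the count was 4 without 30C lysate 2 or without 42C lysate 1. SIS1, an essential Hsp40, rose from 262 and 184 to 538 and 445 CPM. SSA1 was at 1715 and 1115 CPM at 30C and at 3115 and 2426 CPM at 42C (log2 0.97 ± 0.18, adjusted p = 0.00658), and this call was lost without 30C lysate 2 and without 42C lysate 1, as were those of SSA2, HSC82, HSP26, HSP60, TMA10 and YDJ1. STI1, which links Hsp70 to Hsp90, rose from 398 and 261 to 1243 and 947 CPM. SSB1, a ribosome-bound Hsp70, had 2948 and 2859 CPM at 30C and 2975 and 2873 CPM at 42C, which is a change of 0.01 ± 0.06. All 4 small heat shock and sequestrase genes rose, and 4 of 8 mitochondrial chaperone genes. Of 11 ER folding genes, 2 rose: KAR2, the ER Hsp70, from 401 and 283 to 1181 and 893 CPM, and ERO1, the ER oxidase, by 0.60 ± 0.10.

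Of 8 glycogen genes 6 fell, and of 9 trehalose genes 2 fell (TPS2 by −0.77 ± 0.17 and TPS3 by −0.32 ± 0.08, both lost without 30C lysate 1 and without 42C lysate 2) and 0 rose. With the lysate number as a block, 7 of the 9 trehalose genes fell and 1 rose. At 30C, 6 of the 8 glycogen and 6 of the 9 trehalose genes were already higher in depleted than in mock-treated cells, and 0 were lower. Of all 5515 transcripts, 1694 were higher and 1608 lower in this comparison. In mock-treated cells 5 of the 8 glycogen genes fell with heat (median −1.03, against −0.85 in depleted cells), and 0 of the 9 trehalose genes. Of 7 short stress genes tested in depleted cells 0 rose and 0 fell, and 3 rose with the block. The housekeeping lists had few or no calls: 0 of 137 ribosomal protein, 0 of 36 ribosome biogenesis, 0 of 33 proteasome, 0 of 9 eIF4F and 0 of 12 elongation factor transcripts passed in either direction. Only 1.36% of all transcripts rose and 2.85% fell, so 0 calls do not set a short list apart. With the block, 3 ribosomal protein and 7 ribosome biogenesis transcripts rose and 1 proteasome transcript fell. Of 18 glycolysis and fermentation genes 3 fell: ENO1, TDH1 and GLK1, by −0.74, −0.83 and −0.63. None of the 3 calls held without 30C lysate 1.

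Mock-treated cells gave 39 rises and 74 falls. Of the 75 rises in depleted cells 30 were also called in mock-treated cells, and 59 of the 157 falls. The difference between the responses passed the threshold for 0 transcripts (edgeR interaction, 232 at an unadjusted p under 0.05, and 1 higher and 1 lower by DESeq2). With the block, 13 transcripts responded more positively in depleted cells and 9 more negatively. These names were chosen after their values were seen. STI1 was at 842 and 736 CPM in mock-treated cells at 30C and 1254 and 1106 CPM at 42C (log2 0.58, against 1.74 in depleted cells). HSP82 was at 899.7 and 699.6 CPM and 1510 and 1345 CPM (0.84 against 1.84), and KAR2 at 1086 and 1004 CPM and 1555 and 1455 CPM (0.53 against 1.60). In STI1, HSP82 and KAR2 the 30C level was lower in depleted than in mock-treated cells. ZPR1, SIS1, CPR6, AHA1 and SSA1 were also among the 13, and HXT4, HXT3 and FMP48 among the 9. Without the block, the adjusted p of the difference was 0.460 for STI1 and 1.00 for HSP82.

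The third question was which mRNAs escaped sedimentation relative to others of their length. Of 4934 transcripts, 798 had higher escape (16.2%) and 587 lower escape (11.9%; limma, adjusted p under 0.05). Leaving out 1 lysate left 477 to 536 and 238 to 343. Lysate pairs 1 and 2 gave escape values that correlated across transcripts with r = 0.706 (Spearman's rank correlation 0.709, 4934 transcripts, which share libraries and length windows and are not independent). Escape spread over transcripts with an SD of 0.794, against 0.620 in mock-treated cells.

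SSA4 had the highest escape among transcripts that passed the test, 4.88 and 5.33 in the lysate pairs (5.11 ± 0.27 SE, adjusted p = 2.18e-05). HSP26 followed with 4.32 and 3.79, RTC3 with 3.84 and 4.03, and BTN2 with 3.66 and 4.12. HSP104 had 3.76 and 3.93, TMA10, a ribosome-associated protein gene, 3.95 and 3.71, HSP82 3.54 and 3.62, and HSP30 3.38 and 3.39. For each of these 8, both pairs lay far above 0 and close together. The lowest values among transcripts with at least 100 counts were those of IPK1 (−2.08 and −3.68), SEI1, the seipin gene (−1.60 and −4.01), RED1 (−2.85 and −2.72), ERV15 (−2.32 and −3.17), MEI4, a meiotic recombination gene (−2.98 and −2.50), CLG1 (−2.70 and −2.57) and the mannosyltransferase genes of GPI anchor synthesis GPI18 (−3.05 and −2.22) and GPI10 (−2.59 and −2.38). The pairs of IPK1 and SEI1 were far apart, and MEI4 lost the call without any 1 lysate and SEI1 without 30C lysate 1, 30C lysate 2 or 42C lysate 2.

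Of the 69 transcripts called higher in abundance that had both measures, 38 also had higher and 5 lower escape, with a median of 0.83. The 100 transcripts with the largest log2 changes upward, of which 56 had passed the abundance test, had a median escape of 0.78, which was 0.91 in pair 1 and 1.12 in pair 2, against −0.01 for the rest. Of these 100, 81 were above 0, and 42 had called higher and 4 called lower escape, against 16.2% and 11.9% of all. Over the first 50 of them it was 1.57, and over the 100 with the largest changes downward 0.05. Across all 4934 transcripts the correlation of the log2 abundance change with escape was r = 0.213 (Spearman's rank correlation 0.144), given as a description, since both measures come from the same lysates. Some mRNAs that rose had no called escape: CUR1 had 0.725 and 0.773 pSup at 30C and 0.387 and 0.352 at 42C, with an escape of −0.24 ± 0.36, and HSP42 had 0.774 and 0.785 against 0.516 and 0.447, with 0.48 ± 0.22 (adjusted p = 0.133). RPN4, the proteasome gene activator, rose by 0.79 with an escape of 0.21 ± 0.22.

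Conversely, several mRNAs escaped with no called change in amount. HAC1 was at 1506 and 1574 CPM at 30C and at 1545 and 1662 CPM at 42C (log2 0.06 ± 0.06), and its escape was 2.89 and 2.99 in the pairs. RTC3 was at 68.3 and 52.7 CPM against 78.7 and 47.95 CPM, with an escape of 3.93 ± 0.29. HXK1, a hexokinase gene, was at 384 and 286 CPM against 307 and 203 CPM, with 2.40 ± 0.16. In all 3 the temperatures overlapped in abundance, and both pairs gave high escape.

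**Figure D3:**
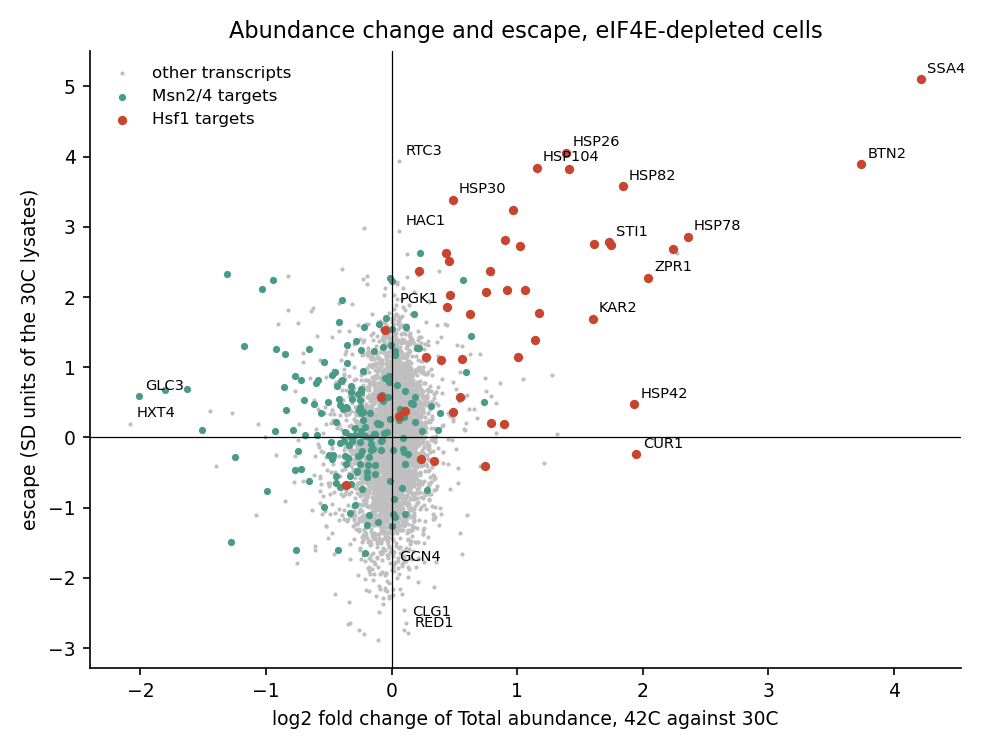
Log2 fold change of Total abundance at 42C (horizontal axis) against escape in SD units (vertical axis) for 4933 of 4934 transcripts of eIF4E-depleted cells, with YRF1-6 outside the axes; Hsf1 targets are red and Msn2/4 targets green. Hsf1 targets spread to the upper right, up to SSA4 (4.22 and 5.11), while HAC1 and RTC3 stand high with abundance changes of 0.06 and CUR1 and HSP42 stand at the right with escape of −0.24 and 0.48.

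Of the 47 Hsf1 targets, 34 had higher and 1 lower escape, with a median of 2.03 (16.2% and 11.9% of all transcripts, median 0.00), and the count of 34 higher held in each fit without 1 lysate. Of the 34 Hsf1 targets that had risen in amount 27 also had higher escape (median 2.10), as had 7 of the other 13 (median 1.15). The Hsp70 and disaggregase list had 13 of 14 higher (median 1.71), from SSZ1 at 0.74 to SSA4, with SSB2 at 0.68 not passing. SSB1, which did not rise in amount, was among the 13 with 0.88 and 1.15, a call lost without 30C lysate 2. Hsp90 and its co-chaperones had 7 of 12 (STI1 2.79 ± 0.21, CPR6 2.10 ± 0.30), and the mitochondrial chaperones 4 of 8 (HSP78 2.86 ± 0.20, HSP10 2.37 ± 0.24). Of the 5 short stress genes measured 4 were higher, with SPI1, a cell wall protein gene, at 2.62 ± 0.22. Of 182 Msn2/4 targets 41 were higher and 11 lower, with a median of 0.23, and without 1 lysate 28 to 35 and 3 to 5 were, the fewest without 30C lysate 1.

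High escape was also found among mRNAs of metabolism that had not risen. All 18 glycolysis and fermentation transcripts had higher escape, in the full fit and without any 1 of the lysates, with a median of 1.67 and a range from 0.94 to 2.40. PGK1, phosphoglycerate kinase, had a pSup of 0.877 and 0.871 at 30C and 0.783 and 0.711 at 42C (escape 1.83 ± 0.24), TPI1, triose phosphate isomerase, 0.898 and 0.893 against 0.788 and 0.716, and FBA1, aldolase, 0.840 and 0.839 against 0.709 and 0.642. Each of them sedimented more at 42C than at 30C, but with a smaller shift than other mRNAs of its length. Of 9 trehalose genes 7 had higher escape (median 0.87), TSL1 with 1.44 ± 0.20 and PGM2 with 1.64 ± 0.32, while 0 of the 9 had risen in abundance and 1 had with the block. The count was 4 without 30C lysate 2, and 5 to 7 without another lysate. Of 8 glycogen genes 2 were higher, GPH1, glycogen phosphorylase, at 1.19 ± 0.22 and GDB1, the debranching enzyme, a call that was lost without 30C lysate 1, without 30C lysate 2 and without 42C lysate 2. Of 14 antioxidant genes 8 were higher (CTT1, catalase, 2.22 ± 0.42, and TSA1, a peroxiredoxin, 1.88 ± 0.19), and 5 were without 30C lysate 2 or without 42C lysate 1. Of 16 cell wall genes 10 were higher and 1 lower (HSP150 1.76 ± 0.14, ECM33 −0.69 ± 0.15, lost without 30C lysate 1 and without 42C lysate 2).

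In the translation machinery, all 9 transcripts of eIF4F and its regulators had higher escape, with a median of 0.85. Without 1 lysate 4 to 6 of them passed, fewest without 30C lysate 1. The depleted factor's own mRNA, CDC33, had a pSup of 0.825 and 0.819 at 30C and 0.643 and 0.554 at 42C (escape 1.27 ± 0.17), and TIF4631, an eIF4G gene, had 0.609 and 0.625 against 0.407 and 0.354 (1.48 ± 0.13). Of 12 elongation and release factors 8 were higher (YEF3 1.59 ± 0.17, EFT2 1.38 ± 0.16). Of 18 other initiation factors 4 were higher (FUN12, eIF5B, 1.50 ± 0.13) and 2 lower (GCD7, an eIF2B subunit, −0.96 ± 0.20). The counts of this last list were near the shares over all transcripts, 16.2% higher and 11.9% lower. PRT1, which encodes eIF3b, had 0.82 ± 0.15. EFT1 and EFT2, and TEF1 and TEF2, are near-identical pairs.

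Ribosomal protein mRNAs went both ways, as did mRNAs in general. Of 137, 35 had higher and 16 lower escape, around a median of 0.13, against 16.2% and 11.9% of all transcripts. Fewer passed in either direction without 1 lysate. RPL43B had 1.81 and 1.59 in the pairs and RPS22B 1.59 and 1.64, whereas RPS28A had −1.60 and −1.62, RPS24B −1.66 and −1.48 and RPL17A −1.34 and −1.30. Many of these genes have paralogs whose reads may be shared. Of 36 ribosome biogenesis transcripts 10 were higher (NUG1 1.47 ± 0.18) and 2 lower (SPB4 −0.95 ± 0.17), and of 33 proteasome transcripts 9 were higher (PRE2 1.70 ± 0.22) and 3 lower (PRE9 −1.03 ± 0.17). Both lists lost calls without 1 lysate: 5 to 7 higher ribosome biogenesis transcripts passed, fewest without 30C lysate 1 and without 42C lysate 1, and 4 to 7 higher proteasome transcripts, fewest without 30C lysate 2. Of 25 amino acid biosynthesis transcripts 11 were higher (HIS4 1.67 ± 0.12), and the 1 lower was GCN4, the activator of these genes, with −1.79 and −1.90 in the pairs. Of 11 decapping and processing body factors 1 was higher and 2 lower, against 16.2% and 11.9% of all transcripts. The higher one was EDC2, an activator of decapping (2.24 ± 0.21). DHH1, a helicase, and LSM1 were lower (−0.87 ± 0.13 and −1.54 ± 0.33), the last lost without 30C lysate 2 and without 42C lysate 2. Of 10 stress granule RNA-binding protein genes 3 were higher: GIS2 with 1.40, DED1 with 1.07 and 1.26 in the pairs, and PAB1 with 0.54, with the call of PAB1 lost without any 1 lysate. Of 11 ER folding genes 3 were higher (KAR2, PDI1 and ERO1, the last lost without any 1 lysate), and 0 of 8 stress transcription factors passed. Among single mRNAs outside the lists, TUB2, β-tubulin, had a pSup of 0.761 and 0.781 against 0.481 and 0.391, near the course of the median, with an escape of 0.12 ± 0.21. ADD66, a proteasome assembly gene, had −1.20 ± 0.28, a call that was lost without 30C lysate 1 and without 42C lysate 1.

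**Figure D4:**
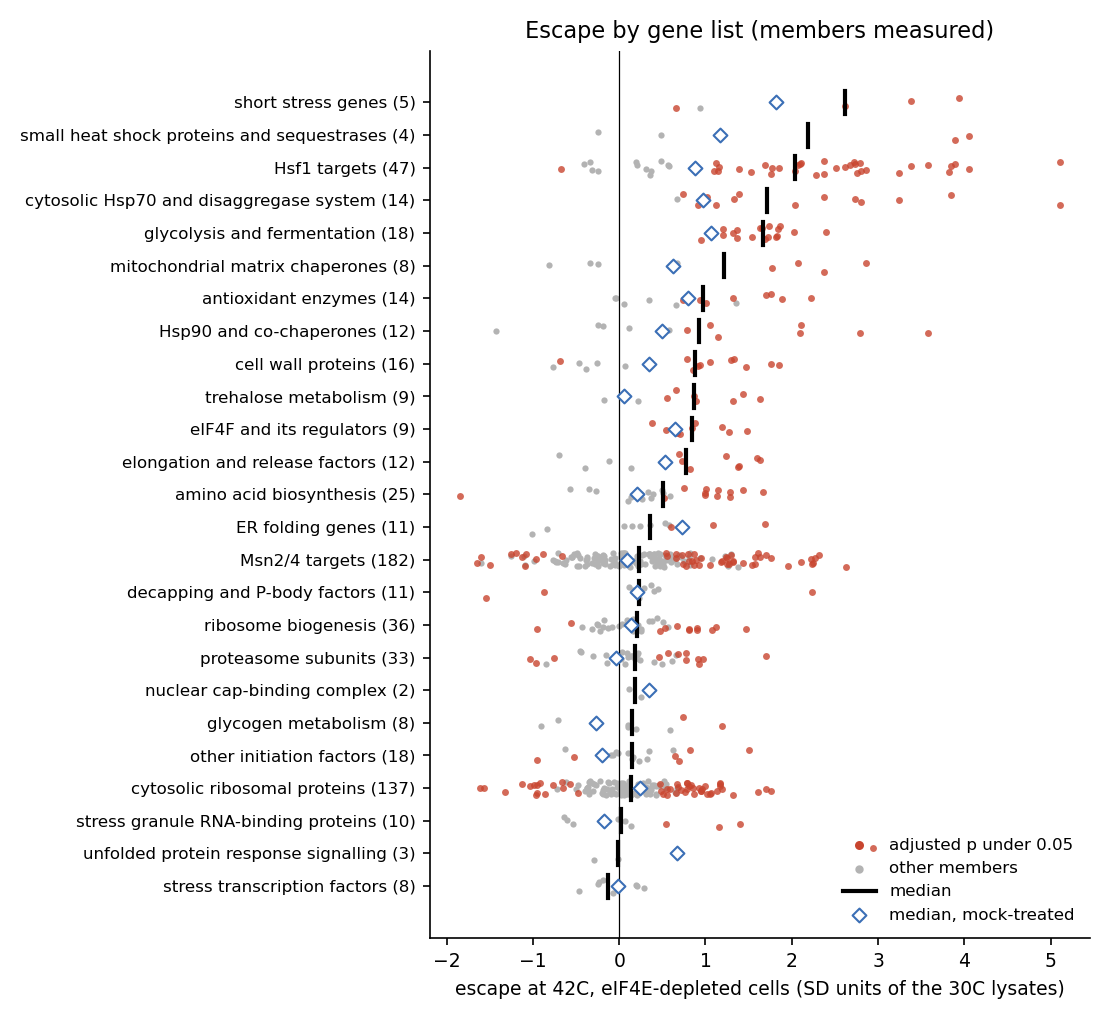
Escape in SD units (horizontal axis) of the members of 25 gene lists in eIF4E-depleted cells, with the number measured after each name; red points passed an adjusted p of 0.05, black bars are medians and open diamonds the medians of mock-treated cells. Short stress genes (2.62), small heat shock proteins (2.19), Hsf1 targets (2.03), the Hsp70 system (1.71) and glycolysis (1.67) have the highest medians, and the stress transcription factors have −0.13.

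Median escape was higher in groups of higher ribosome occupancy and of higher abundance. Over 5 groups of equal size, set by the deposited ribosome occupancy of unstressed wild-type cells (the share of a transcript bound by ribosomes), it was −0.24, −0.07, −0.02, 0.07 and 0.33 from the least to the most occupied. Over 5 groups by mean CPM at 30C it was −0.16, −0.12, −0.07, 0.03 and 0.26, and in the most abundant group 338 transcripts had higher and 97 lower escape, against 38 and 89 in the least abundant. Count depth rises with abundance, and its part in these counts was not tested. By length, for which escape is centred, the sedimentation change had medians of 4.68 SD units in the shortest group and 4.34, 4.21, 4.23 and 4.26 in the others.

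Escape in depleted cells and in mock-treated cells correlated across 4934 transcripts with r = 0.642 (Spearman's rank correlation 0.629). The difference passed the threshold for 2 transcripts with higher escape in depleted cells (0.0405%) and 0 with lower (0%; limma interaction, 687 at an unadjusted p under 0.05). FPR1, the FKBP12 prolyl isomerase through which rapamycin acts, had a pSup of 0.877 and 0.880 at 30C and 0.773 and 0.711 at 42C in depleted cells, and 0.897 and 0.897 against 0.684 and 0.760 in mock-treated cells (difference in escape 1.87 ± 0.22, adjusted p = 0.0322). YNL108C had 0.762 and 0.767 against 0.660 and 0.614 in depleted cells and 0.848 and 0.852 against 0.620 and 0.727 in mock-treated cells (1.99 ± 0.24, adjusted p = 0.0322). Both lost the call whenever 1 lysate was left out. At a minimum of 100 counts the difference passed for 16 transcripts higher and 1 lower.

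Escape estimates of most Hsf1 targets were larger in depleted than in mock-treated cells, but 0 of the 47 passed this test. Of the 47 Hsf1 targets 45 had a positive difference (median 0.95, against 0.02 over all transcripts), and of the Hsp70 list 14 of 14 (0.88) and of the glycolysis list 18 of 18 (0.62). The ER folding list went the other way, with 2 of 11 positive and a median of −0.43 (median escape 0.36 in depleted and 0.73 in mock-treated cells). STI1 had an escape of 2.79 in depleted and 0.85 in mock-treated cells, and HSP82 3.58 and 1.64. For SSA4 the estimates were 5.11 and 3.95, and for RTC3 3.93 and 3.83. TSL1 had 1.44 in depleted cells and −0.46 in mock-treated cells. Since all of these lists were chosen with results of these cells known, and transcripts of a list share lysates, these counts are a description.

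**Figure D5:**
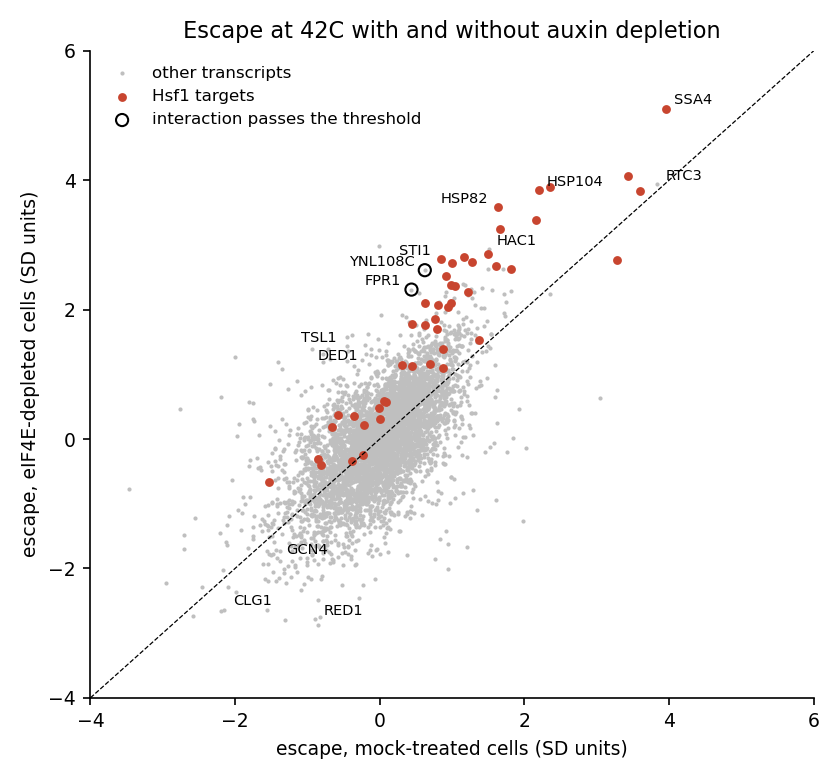
Escape at 42C in mock-treated cells (horizontal axis) against eIF4E-depleted cells (vertical axis), both in SD units of the depleted 30C lysates, for 4933 of 4934 transcripts, with YRF1-6 outside the axes; Hsf1 targets are red, circles mark FPR1 and YNL108C and the dashed line is equality. Of the 47 Hsf1 targets 45 lie above the line, STI1 at 2.79 against 0.85 and SSA4 at 5.11 against 3.95.

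Differences in escape from eIF3b-depleted cells were tested in a separate fit. The strain and the experiment cannot be told apart in this comparison. Escape was higher in eIF4E-depleted cells for 364 of 4923 transcripts (7.39%) and lower for 359 (7.29%). Leaving out 1 lysate left 161 to 312 and 153 to 325, the fewest without 30C lysate 2 of the eIF3b strain, and leaving out any lysate but 30C lysate 1 of that strain moved both counts by over 1.5 times. RPP2B, a ribosomal stalk protein, had an escape of −1.33 and −0.92 in the eIF4E pairs and 2.20 and 2.19 in the eIF3b pairs (difference −3.35 ± 0.34, adjusted p = 0.000112). MZM1, a mitochondrial complex III assembly gene, had 1.97 and 1.96 against −1.76 and −1.07, and PBP2, a KH-domain RNA-binding protein, 0.82 and 0.71 against −1.90 and −2.29. In each, the eIF4E pairs and the eIF3b pairs were well apart. RMD1, EFG1 and NDC80 (differences 3.02, 2.86 and 2.78) and ERS1, RRG1, MGA1 and BOL3 (−2.83, −2.41, −2.40 and −2.38) complete the 5 largest in each direction, and ERS1, RRG1 and MGA1 lost the call without 30C lysate 1 of the eIF4E strain and without other single lysates. YNL108C, with 2.43 and 2.78, had 0.28 and −0.24 in eIF3b-depleted cells (difference 2.59 ± 0.28).

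In Total abundance the response was higher in eIF4E-depleted cells for 0 of 5746 transcripts (0%) and lower for 7 (0.122%; edgeR, 471 at an unadjusted p under 0.05). The lysate number as a block gave 61 and 175, and DESeq2 0 and 13. On the common scale of both experiments, HSP82 went from 700.1 and 383 to 2105 and 1765 CPM in eIF4E-depleted cells and from 93.3 and 107.9 to 1228 and 1203 CPM in eIF3b-depleted cells. SSA1 went from 1851 and 1204 to 3364 and 2620.4 CPM against 257 and 276 to 1649.6 and 1626 CPM. Both were more abundant in eIF4E-depleted cells at each temperature, most of all at 30C. The other 5 fell in eIF4E-depleted cells while the change in eIF3b-depleted cells was −0.22 to 0.09: BAG7 (−1.81), YMR103C (−1.45) and its neighbour YPK2, a protein kinase gene (−1.40), PIR3, a cell wall gene (−0.99), and RCR1 (−0.74). The call of HSP82 was lost without any 1 library but 30C lysate 2 of the eIF4E strain, that of PIR3 without any of 4 libraries, and that of RCR1 without 42C lysate 2 of the eIF4E strain.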

How the data were processed

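The authors trimmed reads (Trim Galore 0.6.10), removed duplicates by molecular identifier (UMI-tools 1.1.4) after alignment (STAR 2.7.10b, SAMtools 1.16.1) and quantified transcripts with kallisto 0.48.0 against R64, as the methods and the submitters' processing notes state. The deposited estimated counts need not be whole and were rounded to whole numbers before edgeR and DESeq2. The authors deposited TPM beside them, which served for marker levels only. The authors' deposited pSup is a fraction built from supernatant and pellet counts with mixing ratios fitted to each lysate, which the authors deposited too, and their deposited ribosome occupancy is the fraction of a transcript bound by ribosomes in polysome profiles with an added S. pombe standard.

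From these, Total counts were tested with edgeR 4.0.16 (quasi-likelihood, 12 libraries), and log-odds pSup with limma 3.58.1 (12 lysates). These 12 were the depleted and mock-treated samples of the eIF4E strain at all its temperatures, 46C among them. Log-odds pSup was tested over transcripts with at least 20 counts in supernatant and pellet. A further 5 transcripts with a pSup of exactly 0 or 1 were left out, and 4 with no neighbour in their length window (0.02 of the range of log length) were left out of escape. P-values were Benjamini-Hochberg adjusted over all transcripts tested. Differences from eIF3b-depleted cells came from 24 Total libraries or 24 lysates. These were the depleted and mock-treated samples of both strains at all their temperatures. Statistics scripts were tested on simulated data.

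Same-numbered Total libraries deviated together in 10 of 15 pairs of groups over all transcripts (r 0.00173 to 0.333). Over 3955 transcripts with at least 100 counts they did so in 15 of 15 (r 0.214 to 0.555), so the number pairs them. The reported Total fits had no term for this pairing, and their counts, SEs and p-values ignore it. The fit with the number as a block was run as an alternative. Same-numbered lysates deviated together in 1 of 15 pairs for log-odds and 1 of 15 for escape. In each this was the depleted 30C and 42C groups compared here (r 0.497 and 0.492). These measures were not treated as paired because the other 14 pairs did not pass.

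Named transcripts were those singled out for these assays in the study, the mRNAs of the depleted factors, the 10 largest rises and falls in abundance, the 8 highest and 8 lowest in escape and the 5 largest differences each way (adjusted p under 0.05, same sign in both pairs, at least 100 counts), and up to 5 members of each list with the smallest p. Members and lists were chosen with earlier results of these data known. Alternatives were DESeq2 1.42.0, other scalings and filters, the replicate block and leaving out each lysate. Columns of the authors' own comparisons were not used.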

Additional observations from a re-analysis of the deposited data

Results flagged for a closer look

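The response to heat differed between depleted and mock-treated cells by the interaction test for FPR1 (difference in escape 1.87) and YNL108C (1.99). FPR1 encodes a prolyl isomerase. Both calls were lost without any 1 of the 8 lysates, and that of YNL108C also with length bins in place of windows.

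The response differed from that of eIF3b-depleted cells by the test of the difference for 7 transcripts in abundance, all lower in eIF4E-depleted cells: HSP82 (−1.76), BAG7 (−1.67), SSA1 (−1.65), YMR103C (−1.27), YPK2 (−1.18), PIR3 (−1.02) and RCR1 (−0.83), on the log2 scale. For HSP82 and SSA1 the 30C levels differed between the strains by more than the 42C levels did.

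In escape, 364 transcripts were higher and 359 lower than in eIF3b-depleted cells. The 5 largest each way were MZM1 (3.35), RMD1 (3.02), PBP2 (2.86), EFG1 (2.86) and NDC80 (2.78), and RPP2B (−3.35), ERS1 (−2.83), RRG1 (−2.41), MGA1 (−2.40) and BOL3 (−2.38). Strain and experiment cannot be told apart in these differences.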

How the results depend on the processing

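With the replicate block, which pairs Total libraries by lysate number, abundance calls went from 75 to 196 rises (3.55% of transcripts) and from 157 to 301 falls (5.46%), the differences from mock-treated cells from 0 and 0 to 13 and 9, and those from eIF3b-depleted cells from 0 and 7 to 61 and 175. The block left 1 higher escape difference from mock-treated cells. DESeq2 gave 84 falls (1.43%), 1 and 1 differences from mock-treated cells and 13 lower differences from eIF3b-depleted cells. NanoLuc scaling gave 35 rises (0.635%), 0 higher and a median change of −1.81 in log-odds, and 6 lower differences from mock-treated cells in log-odds. At least 100 counts gave 0 higher in log-odds and 16 higher and 1 lower escape differences from mock-treated cells, and length bins gave 1 higher. The comparisons with eIF3b-depleted cells were varied by choices made after seeing the data. The 50 most induced transcripts had a median escape of 1.57.

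Without 1 lysate, where the lone sample of a group is assumed to vary like the others, rises were 39 to 58 (0.704% to 1.05%), falls 1.17% to 1.93% of transcripts, higher log-odds 0 to 1, higher escape 477 to 536 and lower escape 238 to 343. Differences from mock-treated cells were 0 to 1 each way in abundance, 0 to 1 higher and 0 to 3 lower in log-odds, and 0 higher in escape. Differences from eIF3b-depleted cells were 0 to 1 higher in abundance, and 161 to 312 higher and 153 to 325 lower in escape. From 1 lysate pair alone, with the other lysate of both temperatures left out, the median escape of the 100 most induced was 0.91 (pair 1) and 1.12 (pair 2). The log-odds change of YRF1-6 ranged from −4.79 to 7.34 and reversed without 30C lysate 1 and, at −4.03, without 42C lysate 2. The cause of these changes was not tested, beyond the smaller number of samples. Of 171 named transcripts 14 lost an abundance result under another setting and 16 without 1 library, and of 166 with escape 12 and 30, with 0 reversed. With 2 lysates a side, small differences were not detectable.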
